A study of Bos taurus with 2 samples.

Results

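The pyruvate dehydrogenase complex and the enzymes that switch it on and off were examined in the fetal longissimus thoracis (LT) muscle of Japanese Black cattle. The 10 genes chosen were 3 subunits of the complex (*PDHA1*, *PDHB* and *DLAT*), the 4 pyruvate dehydrogenase kinases (*PDK1*, *PDK2*, *PDK3* and *PDK4*), the phosphatases *PDP1* and *PDP2*, and the pyruvate carrier *MPC1*. They were chosen with the difference between both arrays already known, so their values are a description. Probes were assigned by matching the transcript identifier of each probe to a gene symbol. In all, 9 of the 10 genes had a matched probe, with 24 probes together, among 19554 genes with a value. No probe was matched to *PDP2*, which is not analysed here.

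The muscle came from fetuses at 8.5 months of gestation (day 260 ± 8.3), sired by a single bull through male-sorted semen. Their dams were fed, before conception and through gestation, either 60% (low nutrition, LN, 5 cows) or 120% (high nutrition, HN, 6 cows) of the nutritional requirement. There was no group fed the requirement itself. Total RNA of 4 fetuses per group was pooled, the LN pool from those with the lowest body weight (BW) and the HN pool from those with the highest, so the diet of the dam and the selection on BW cannot be told apart. A single one-color Agilent Bovine (v2) array was used per pool. With 1 array a group there was no replicate, no test and no p-value, and every difference below compares these 2 arrays. No spot was saturated, and the scanner software called 74.5% of HN spots and 70.9% of LN spots well above background.

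The pyruvate dehydrogenase complex sits in the mitochondrial matrix and converts pyruvate to acetyl-CoA, which joins glycolysis to the citric acid cycle. The kinases phosphorylate its E1 alpha subunit and inactivate it, and the phosphatases remove the phosphate. *PDK4* is a major kinase isoform of skeletal muscle, where it is known to be induced by fasting and by fatty acids, so that glucose carbon is spared while fat is oxidized.

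*PDK4* had 8 probes, all assigned to transcript NM_001101883. The quantitative PCR primers that the study lists for the same transcript are shown. Neither the primers nor the probes were checked here against the transcript sequence. Each primer has 24 bases with 45.8% G and C, and the PCR values are not analysed here.
PDK4 forward primer: tcttcagttacacgtactccactg
PDK4 reverse primer: gacgagaaattggtaagccgtaac

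The main difference among the members lay in this single kinase. *PDK4* was 2.42-fold lower in the LN pool than in the HN pool, with a mean log2 LN/HN of -1.28 ± 0.22 (SD over its 8 probes, which measured the same 2 pools and are not replicates). The other kinases were nearer to 0, with *PDK1* at 0.25, *PDK2* at -0.20 and *PDK3* at -0.03. The 3 subunits lay between -0.03 and 0.05, and the carrier *MPC1* at -0.01. The phosphatase *PDP1* was 1.44-fold higher in the LN pool, from 1 dim probe. Of the 9 members, 5 were lower and 4 higher in the LN pool, and their median log2 LN/HN was -0.01 beside -0.0033 for all genes. By a threshold of 0.32 on the log2 scale, the log2 of the fold by which the study took genes into its pathway analysis, 1 member was lower in the LN pool, where 9.11% of all genes were so, and 1 was higher, where 8.85% were so. *PDK4* was also the 1 member past 2-fold lower, as were 0.286% of all genes. Because the members were chosen on this contrast, nothing is read from these shares.

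**Figure D1:**
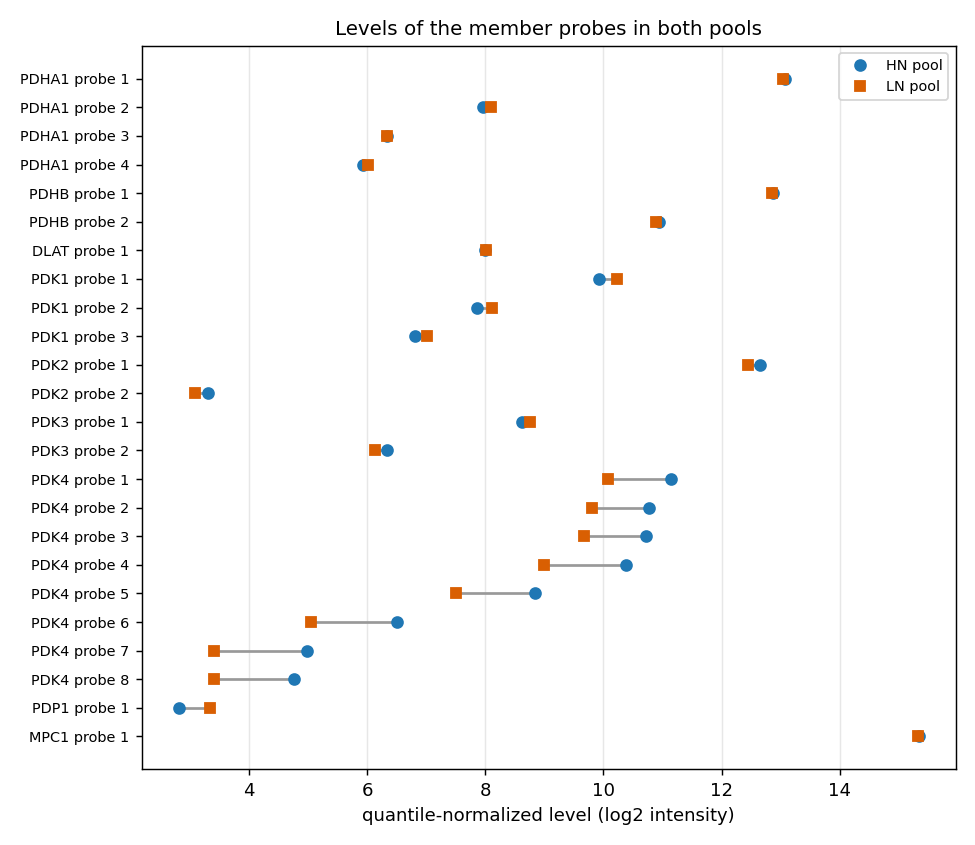
Level of each of the 24 member probes in the HN pool (blue circles) and the LN pool (orange squares), as quantile-normalized log2 intensity on the horizontal axis. Probes of a gene are numbered from the brightest, and a gray line joins the values of a probe. All 8 *PDK4* probes had a lower LN value, from 11.15 against 10.07 for the brightest to 4.76 against 3.40 for the dimmest, while the points of the subunits lie nearly on top of each other. Levels of different probes are not comparable.

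The catalytic subunits were at nearly the same level in both pools. *PDHA1* encodes the E1 alpha subunit that the kinases phosphorylate, and its 4 probes (transcript NM_001101046) had log2 LN/HN of -0.03, 0.13, -0.0045 and 0.08. The brightest gave a signal of 8520 in HN and 8476 in LN. Thus the transcript of the target of the kinases differed by 0.05 ± 0.07 (SD over 4 probes) between the pools, and the protein was not measured. *PDHB*, the E1 beta subunit (NM_001035435), had levels of 12.86 in HN and 12.85 in LN with its brighter probe. Its second probe read 10.94 and 10.88, and the mean log2 LN/HN was -0.03. *DLAT*, the E2 subunit that carries the acetyl group (NM_001205730), had 1 probe with signals of 254 in HN and 261 in LN. Over these 3 genes all 7 probes lay between -0.05 and 0.13, and the gene values spanned 0.08 on the log2 scale, while those of the 4 kinases (15 probes) spanned 1.53. The sign of *PDHA1* changed in 1 and that of *PDHB* in 3 of 14 alternative ways of processing the arrays, so neither has a settled direction. *DLAT* stayed between 0.0016 and 0.07.

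The kinases did not share a direction. *PDK1*, the isoform known for its induction by hypoxia-inducible factor 1 (HIF-1), was higher in the LN pool with all 3 probes (NM_001205957). Its brightest probe had a signal of 952 in HN and 1218 in LN, the next 229 and 278, and the dimmest 113 and 129. These gave log2 LN/HN of 0.31, 0.26 and 0.19, a mean of 0.25 ± 0.06 (SD over 3 probes) or 1.19-fold, which placed *PDK1* at percentile 87.2 of all genes. *PDK2* (NM_001075853), an isoform expressed in most tissues, was lower with both probes, at signals of 6335 in HN and 5687 in LN for the bright one. The other was dim, at 10.4 and 8.10, and the mean of both was -0.20 or 1.15-fold (percentile 17.4). *PDK3* (NM_001101934) had 2 probes that disagreed: the brighter read 388 in HN and 440 in LN, and the other 81.3 and 70.5. Their log2 LN/HN of 0.15 and -0.20 averaged to -0.03, and this mean changed sign in 3 of the 14 alternatives. *PDK1* was higher and *PDK2* and *PDK4* were lower in the LN pool under every one of them.

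*PDK4* was lower in the LN pool with each of its 8 probes. From the brightest to the dimmest, the first 3 had signals of 2238, 1729 and 1656 in HN and of 1096, 908 and 831 in LN. The next 3 read 1315, 454 and 91.4 against 517, 182 and 32.7, and the last 2 read 32.2 and 27.7 against 10.1 and 10.1. Every LN signal was thus below the HN signal of the same probe, over a wide range of brightness. In the same order the log2 LN/HN was -1.08, -0.97, -1.04, -1.40, -1.35, -1.45, -1.57 and -1.36, or 1.96 to 2.97-fold lower. The software's error estimate for these log2 ratios was 0.20 to 0.30 per probe, which covers the measurement on the array and not the spread between fetuses. Of the 24 member probes, 8 were past the 0.32 threshold in the lower direction (8.31% of the 30639 probes measured on both arrays) and these were the *PDK4* probes, 7 of them past 2-fold lower (0.238% of probes). One was past it in the higher direction (8.59% of probes), that of *PDP1*. It was the 1 probe past the threshold among the 16 of the other 8 members.

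**Figure D2:**
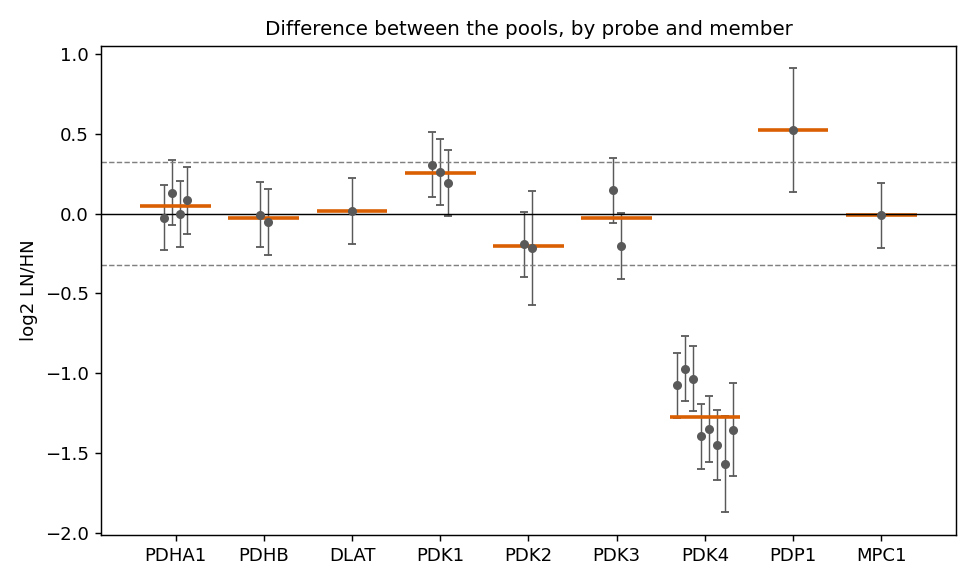
Log2 LN/HN of each member probe (gray points, from the brightest at left to the dimmest at right within a gene) with the scanner software's error estimate as bars, and the mean of each gene (orange lines). Dashed lines mark the threshold of 0.32. The *PDK4* probes lie between -1.57 and -0.97, below all 16 probes of the other members, and the *PDP1* point at 0.52 has the widest bar.

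The 4 dimmest *PDK4* probes had a larger difference than the 4 brightest, with means of -1.43 and -1.12. The order reversed when the background of median spot signals was modelled with normexp and an offset of 50. This gave -0.58 for the dim and -1.10 for the bright probes. The trend with brightness thus depends on the processing, in which both the signal and the background treatment differed. Under normexp the 8 probes ranged from -1.37 to -0.34, and all remained lower in the LN pool. In the values that the authors normalized themselves, all 8 probes were present and ranged from -1.79 to -0.92.

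Among all 19554 genes *PDK4* ranked as the 16th lowest (percentile 0.0793), and the central 95% of genes lay between -0.56 and 0.65. In this rank a gene with a bound counts at its bound. Some of these, such as *TBXAS1* (a bound of -1.26 from 1 probe), may lie below *PDK4*. Many genes rest on 1 probe, so genes with at least 3 probes, all measured on both arrays, were set apart. *PDK4* had the lowest value of these 2891 genes. This class leaves out genes with a probe below background in the LN pool, such as *BOLA-DQB* (a bound of -1.20 over 3 probes) and *GBP1* (-1.11 over 3 probes), whose values may lie below their bounds. Every probe was past the 0.32 threshold in the lower direction in 41 of them (1.42%), *PDK4* included, and no gene of the 2891 had every probe past 2-fold lower. The 5 named genes of this class with log2 LN/HN nearest to that of *PDK4*, a likeness over only 2 arrays, were *ANKRD1* (-0.85), *FABP3* (-0.84), *IFI27* (-0.80), *KLF11* (-0.73) and *NR4A1* (-0.70). The nearest of them was 0.43 away on the log2 scale. *FABP3* is the fatty acid-binding protein of heart and skeletal muscle.

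**Figure D3:**
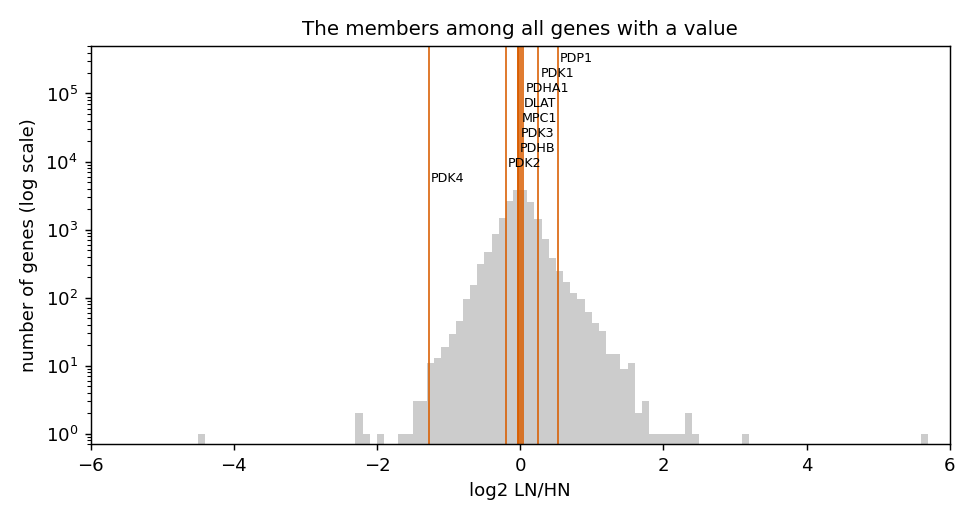
Histogram of log2 LN/HN of the 19554 genes with a value (horizontal axis, bins of equal width), with the number of genes on a log scale, and the 9 members as orange lines. *PDK4* at -1.28 stands in the sparse lower tail, while 5 of the 9 members lie within 0.1 of 0, as do 38.8% of all genes.

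*PDP1* and *MPC1* complete the members. *PDP1* (NM_001206353) encodes the catalytic subunit of a phosphatase that reactivates the complex. Its probe had a signal of 7.55 in HN and 9.65 in LN, a log2 LN/HN of 0.52 (percentile 96.1) with an error estimate of 0.39. Its normalized levels, 2.82 in HN and 3.34 in LN, were close to the lowest levels called well above background (2.27 for HN and 2.82 for LN). The value was 0.12 under normexp and 0.075 without background subtraction, both on median spot signals, and 0.32 when the arrays were scaled to the 75th percentile. None of these passed the threshold, so the size for *PDP1* rests on both the treatment of signal and background and the scaling. *MPC1* (NM_001077042) encodes a subunit of the carrier that brings pyruvate into mitochondria, and its bright probe read 41917 in HN and 40495 in LN. The sign of *MPC1* changed in 2 of the 14 alternatives, so it has no settled direction.

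Ordered from lowest to highest, the members were *PDK4*, *PDK2*, *PDHB*, *PDK3*, *MPC1*, *DLAT*, *PDHA1*, *PDK1* and *PDP1*. *PDK4* lay 1.07 below *PDK2* on the log2 scale, past 0.28, the larger of their mean probe errors. From *PDHB* to *PDHA1*, neighbours differed by 0.0029 to 0.030, so those 5 have no order. The gap from *PDK2* to *PDHB* was 0.17 with an error of 0.28, that from *PDHA1* to *PDK1* was 0.21 with an error of 0.21, and that from *PDK1* to *PDP1* was 0.27 with an error of 0.39. These errors are those of the scanner software only. For comparison, single spots of a probe printed several times had an SD of 0.085 in log2 LN/HN (42 probes), and the median SD between probes of a gene was 0.099 over 7139 genes. The spread of *PDK4* between its probes was thus larger than is usual on these arrays, and still small beside its difference.

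**Figure D4:**
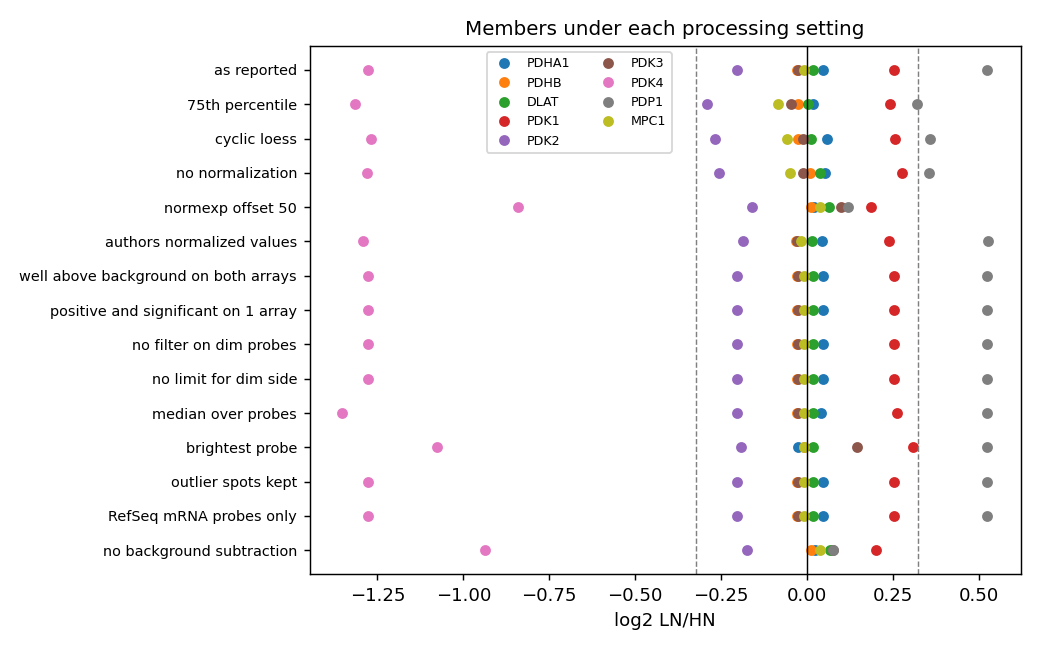
Log2 LN/HN of the 9 members (colors) as reported and under the 14 alternative settings (rows). Dashed lines mark the threshold of 0.32. *PDK4* stays left of the lower line in every row, between -1.35 and -0.84, and *PDP1* moves from 0.52 to 0.075.

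The remaining parts of the complex were described next. *DLD*, the E3 subunit shared with the sister complexes, was at -0.01 and *PDHX*, which anchors E3, at 0.10, and the sign of both changed in at least 1 alternative. *PDPR*, the regulatory subunit of the phosphatase, exceeded background clearly in HN only, so its difference is a bound of at least 1.37-fold lower in the LN pool, on a level of 3.28 in HN against a limit of 2.82. *MPC2*, the partner of *MPC1*, was at 0.17. The list of the remaining subunits and of the genes for lipoate and thiamine supply had values for 11 of 11 entries, of which 4 were lower and 7 higher. Past the threshold of 0.32 were 1 lower and 2 higher (9.11% and 8.85% of all genes), the latter the thiamine transporters *SLC19A2* (1.29, from 1 of its 2 probes) and *SLC19A3* (0.51), and the median was 0.10. With normexp, *SLC19A2* was at 0.51, *SLC19A3* at 0.15 and *PDPR* at -0.04.

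The related dehydrogenase complexes for 2-oxoglutarate and branched-chain amino acids had a median of -0.04 over 8 of 9 entries, with 5 lower and 3 higher. Of these 8, none was past the threshold in the lower direction (9.11% of all genes) and 3 in the higher (8.85%). The 3 were the E1 beta subunit *BCKDHB* (0.41), the E2 subunit *DBT* (0.53) and the phosphatase *PPM1K* (0.51, its 4 probes between 0.35 and 0.66) of the branched-chain complex. The E1 alpha subunit of the same complex, *BCKDHA*, was at -0.12, with both probes lower in the LN pool (-0.15 and -0.10). *BCKDK*, the kinase of that complex and the nearest relative of the pyruvate dehydrogenase kinases, was at -0.10 and changed sign in 3 alternatives. *PDK4* lay 1.18 below it on the log2 scale.

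Of the genes on other routes to and from pyruvate, 17 of 18 had values, 7 lower and 10 higher, with a median of 0.10. Past the threshold were 3 in each direction, beside 9.11% of all genes lower and 8.85% higher. The 3 past the threshold in the lower direction were *PKM* (-0.35), which forms pyruvate in glycolysis, the mitochondrial malic enzyme *ME3* (-0.43), and *PCK1* (-0.49, from 1 of its 3 probes). The 3 higher were mitochondrial phosphoenolpyruvate carboxykinase *PCK2* (1.26), the lactate and pyruvate transporter *SLC16A1* (0.49) and the insulin-responsive glucose transporter *SLC2A4* (0.54). The 4 *SLC2A4* probes lay between 0.21 and 1.09. The paper, in contrast, refers to lower expression of this transporter (GLUT4) seen in earlier work. With normexp, *SLC16A1* was at 0.32 and *SLC2A4* at 0.33. *PCK1* was at -0.18 with normexp and at -0.09 when dim probes were not filtered, and *PKM* at -0.20 with its brightest probe, neither past the threshold.

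Genes known to act on *PDK4* transcription were then described. Of 20 entries, 14 had a value, with 7 lower and 7 higher, a median of -0.0030, none past the threshold in the lower direction (9.11% of all genes) and 1 in the higher (8.85%), *KLF15* (0.61, from 1 of its 2 probes), a factor induced by glucocorticoids. *KLF15* was at 0.31 when dim probes were not filtered. The transcript of the glucocorticoid receptor *NR3C1* was at -0.05. Those of the PPARs did not share a direction, with *PPARA* at 0.29, *PPARD* at -0.12 and *PPARG* at -0.15, and of their coactivator *PPARGC1A* and the related receptor *ESRRA* the former was at 0.24 and the latter at -0.08. *FOXO1* was among the 6 entries with no matched probe.

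*PDK4* is a known target of the peroxisome proliferator-activated receptors (PPARs), and among the other such targets, 16 of the 20 with a value (22 entries) had a negative log2 LN/HN. The median was -0.29, with 10 past the threshold in the lower and 1 in the higher direction, beside 9.11% and 8.85% of all genes. They included *ANGPTL4* (-2.20), an inhibitor of lipoprotein lipase, *FABP3* and the carnitine carrier *SLC25A20* (-0.55). The uncoupling proteins *UCP2* (-1.90, from 1 of its 2 probes) and *UCP3* (-2.12) were among them too. For *UCP3*, 1 of the 2 probes was not well above background in the LN pool. The lipid droplet protein *PLIN2* went the other way, at 0.54. With normexp, *ANGPTL4* was at -1.24, *UCP2* at -0.50 and *UCP3* at -0.86. The list was written with these results known, so its direction is not independent evidence. Without the 3 genes that the study names from these arrays, *ANGPTL4*, *UCP2* and the carnitine transferase *CPT1B* (-0.37, probes between -0.63 and -0.0098), 13 of 17 were lower, 7 of them past the threshold, with a median of -0.20.

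Targets of glucocorticoids and FOXO factors, which act on *PDK4* as well, were 7 lower and 9 higher of 16 with a value, with a median of 0.01. Past the threshold were 1 lower and 3 higher (9.11% and 8.85% of all genes). The glucocorticoid-induced chaperone partner *FKBP5* was 2.42-fold higher in the LN pool (1.28, 3 probes between 1.17 and 1.35 of 4), and *CDKN1A*, a cell cycle inhibitor, was at 0.66. *DDIT4*, an inhibitor of mTOR signaling, was at -0.51, and the metallothionein *MT2A* at 0.36 (0.31 with its brightest probe).

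**Figure D5:**
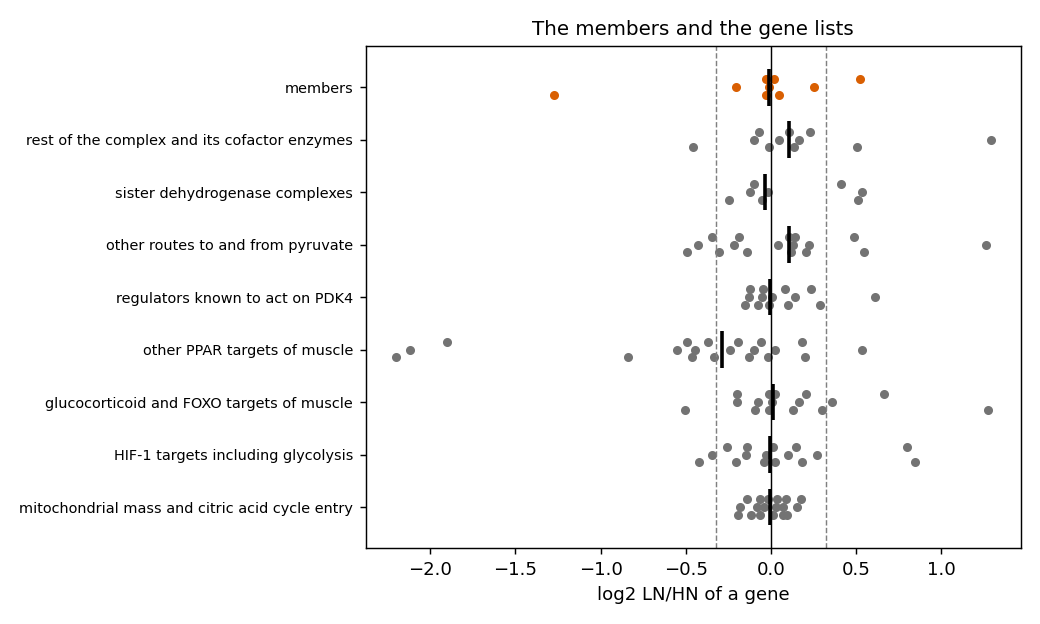
Log2 LN/HN of the members (orange) and of the genes of 8 lists fixed for this description (gray), one point per gene and a black bar at the median. Dashed lines mark the threshold of 0.32. The PPAR targets have a median of -0.29, while the medians of the other lists lie between -0.04 and 0.10.

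In bulk tissue, fewer cells of a type and less RNA per cell cannot be told apart. All 9 skeletal muscle markers, among them *ACTA1* (-0.04), *CKM* (-0.24) and *MYH3* (-0.04), were well above background on both arrays, and their summed level in the LN pool was 0.962 of that in the HN pool, with 8 lower and 1 higher. Past the threshold were myoglobin *MB* (-0.37) and the perinatal myosin *MYH8* (0.35), but neither was when the brightest probe stood for the gene (-0.31 and 0.04). A summed level follows the brightest probes of its list, so gene values are given beside it. The summed level of the 4 fibroblast markers was 1.30 times as high in the LN pool (108476 in HN and 140662 in LN), with all 4 higher, *COL1A1* at 0.34 and *COL3A1* at 0.33, both near the threshold and not past it in the authors' values. That of the 4 adipocyte markers with a probe (of 5) was 1.23 times as high (467 and 573). *FABP4* was at 0.39, *CIDEC* at 0.22 and *PLIN1* at -0.14, and *LEP*, which is in the sum, was not well above background on both arrays. Endothelial markers, 4 of 4, summed to 0.833 of the HN level (3742 and 3116), with *PECAM1* at -0.32, *TEK* at -0.23, *CDH5* at -0.19 and *VWF* at 0.02. The *VWF* value is a mean over 5 of its 7 probes, which disagreed (-0.24 to 0.85). Macrophage and neutrophil markers, 5 of 5, summed to 0.888 (5534 and 4915), with *ITGAM* included though not well above background on both arrays. Their genes did not go the same way. The macrophage markers *CD68* (-0.35), *C1QA* (-0.29) and *CSF1R* (-0.06) were lower in the LN pool, and *S100A8*, abundant in neutrophils, was 2.62-fold higher (1.39, 1 probe). *CD68* was at -0.13 with normexp. Erythroid markers, 5 of 5, summed to 0.998, a value set by the bright *HBA* probe (0.0021), while *HBB* (-0.17), *AHSP* (-0.16) and *ALAS2* (-0.03) were lower. *SLC4A1* is in this sum though not well above background on both arrays. The part of these differences in the lower *PDK4* signal was not tested.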

How the data were processed

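Total RNA of the LT muscle was measured on 2 one-color arrays, 1 per group, each a pool of 4 fetuses. The authors deposited spot intensities from Agilent Feature Extraction (11.0.1.1 per the submitters' processing notes), background-subtracted and not normalized between arrays, with detection flags and error estimates. They also deposited values after quantile normalization in GeneSpring GX, whose log2 scale was judged from the values.

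Here, log2 intensities were quantile-normalized with limma 3.58.1 in R 4.3.3. Control spots and 13 spots flagged as outliers were left out, and repeated spots were averaged. Probes entered if 1 array or both had them well above background. A dim side below the lowest level well above background on its array was raised to that level. A dim side above that level kept its measured value. Probes whose dim side then reached or passed the other side were left out. A gene is the mean over its probes. Of 43652 probes, 26742 matched a RefSeq symbol through the ARS-UCD2.0 gene table, used for names only, because the array was designed on an earlier assembly. Python 3.11.15, numpy 2.4.6, pandas 2.3.3 and matplotlib 3.10.9 were used. The steps were tested on simulated data.

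Members and gene lists were chosen with earlier results of these data known. The genes named are all members, *DLD*, *PDHX*, *PDPR*, *MPC2* and *BCKDK*, list genes past the threshold of 0.32 (log2) whose probes went the same way (at most 6 a list), and the 5 genes most like *PDK4*; *BCKDHA*, *BOLA-DQB*, *GBP1*, *CPT1B*, the regulators within the threshold and the other marker genes were added after their values were seen. The alternatives were scaling to the 75th percentile, cyclic loess, unnormalized signals, normexp (on median spot signals, as mean signals were not used here), the authors' values, 4 rules for dim probes, the median or brightest probe, outlier spots kept, RefSeq mRNA probes only and, chosen after seeing the data, no background subtraction. With 1 array a group the number of arrays limits the precision, and no error between fetuses is known. A search of promoters for motifs was not run.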

Additional observations from a re-analysis of the deposited data

How the results depend on the processing

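Under the 14 alternatives *PDK4* kept its direction and stayed past the threshold of 0.32 in the lower direction, between -1.35 and -0.84. It moved by more than the spread between its probes with normexp (-0.84) and without background subtraction (-0.94). The cause was not tested. The number of members past it in the higher direction went from 1 to 0 under the 75th percentile, normexp and no background subtraction, because *PDP1* moved from 0.52 to 0.32, 0.12 and 0.075 (0.36 with cyclic loess and 0.35 without normalization). *PDK2* moved to -0.29 under the 75th percentile. Over all genes, 1781 were past the threshold in the lower and 1731 in the higher direction (49.3% higher), against 2693 and 1191 under the 75th percentile (30.7% higher), 2260 and 1462 without normalization (39.3% higher), 386 and 319 with normexp, 3777 and 3125 with probes positive and significant on 1 array, 3592 and 3251 with no filter on dim probes, 922 and 899 with RefSeq mRNA probes only, and 609 and 523 without background subtraction. No scaling moved the median of all genes by over 0.1. No paired analysis was possible because each group has 1 array, and for the same reason no replicate could be left out. Signal over background limits *PDP1*, the dim *PDK2* probe and the dim *PDK4* probes, 4 of which averaged -1.43 as reported and -0.58 with normexp.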

Other observations

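HIF-1 targets, a class to which *PDK1* belongs, had values for 16 of 18 entries, 8 of them lower and 8 higher, around a median of -0.0064 for log2 LN/HN. The glucose transporter *SLC2A1* (0.80, from 2 of its 3 probes) and the oxygen sensor *EGLN3* (0.85) were past the threshold of 0.32 in the higher direction, and *PDK1* at 0.25 was not. With normexp, *SLC2A1* was at 0.37 and *EGLN3* at 0.33. Without normalization *BNIP3* was at -0.30 and not past the threshold. *BNIP3* (-0.35), which acts in mitochondrial autophagy, and *PFKFB3* (-0.42), which makes an activator of glycolysis, were past it in the lower direction. These 2 in each direction stand beside 9.11% of all genes lower and 8.85% higher. The 18 genes of mitochondrial mass and citric acid cycle entry were all within the threshold, 9 lower and 9 higher, between -0.19 and 0.18 with a median of -0.0028. Of these lists, both medians changed sign in some alternatives (4 and 3 of 14).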
